A study of Mus musculus with 8 samples.

Results

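The amino acid stress response genes driven by the transcription factor ATF4 were followed in a thymic epithelial cell line with and without an Aire mutation, before and after thymocyte adhesion. The 46 genes were chosen by symbol from what is known of the pathway, with results of these same libraries in view, and make up 46 of the 24052 gene symbols counted. Because earlier differences between these libraries guided that choice, the members' behavior is described here and gives no independent evidence that the pathway moved. Of the 46 genes, 43 passed the filter on low counts and were tested among 11672 genes. Stc2 and Cbs had 0 counts in all 8 libraries, and Bcat1 had between 0 and 3 counts per library, so these 3 genes were not tested. A count of 0 allows a level of up to 0.149 to 0.222 CPM (read counts scaled to equal library size) in these libraries, for counting error only.

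Cells that lack an amino acid carry uncharged tRNA, which activates the kinase GCN2, and other stresses activate related kinases. These kinases phosphorylate the translation factor eIF2, which slows protein synthesis in general while the Atf4 mRNA is translated more. ATF4 protein then switches on genes that take up and make amino acids, charge tRNAs and, under lasting stress, restrain growth. Much of its control is at translation, so the level of the Atf4 mRNA need not follow the activity of the protein, which was not measured here.

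The mTEC 3.10 line derives from medullary thymic epithelial cells of C57BL/6 mice, the cells that display self-antigens to developing T cells. The WT group was the unmutated line, labelled wildtype. E6 was 1 clone in which exon 3 of Aire had been cut by Crispr-Cas9. The labels give its genotype as Aire +/-, whereas the methods of the study describe mutations of both alleles. Since E6 was a single clone, effects of the Aire mutation and other differences between a clone and its parent line cannot be told apart. Each line was sequenced before adhesion and after 12 h of co-culture with C57BL/6 thymocytes at 50 thymocytes per mTEC, followed by washing and trypsin. Each of the 4 groups had 2 libraries. Groups follow the sample titles: the protocol text of the E6 libraries before adhesion also mentions co-culture, while their source names say that there was none. The labels record passage 2 for the cells, but do not say whether the libraries of a group came from separate cultures, so the p-values measure only the spread between these libraries.

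Libraries held between 13506610 and 20145154 reads on genes. WT after adhesion replicate 1 stood apart, where 66.7% of reads fell on genes (75.7% to 78.8% elsewhere), and with lower levels at genes of higher GC content (-0.46 log2 units per 10% GC, against -0.02 to 0.13). In the labels, 3 libraries (WT after replicate 2, E6 before replicate 1 and E6 after replicate 1) were cultured for 24 h and the other 5 for 12 h. Aire had 0 counts in 6 libraries and 3 counts in each of the other 2 (WT after replicate 2 and E6 after replicate 2), so it did not check the labels at this depth. Epithelial markers summed to between 3125 and 5138 CPM in every library. Cd40, Fezf2 and Tnfrsf11a, which mark mature mTECs, were at 0 in all 4 WT libraries and both E6 libraries before adhesion. In E6 after adhesion they had 0.12 to 0.37 CPM. Cd80 and H2-Aa, which also mark mature mTECs, reached at most 0.245 and 1.17 CPM, both in E6 after adhesion. Myeloid markers (6 of 7 were analysed here) summed to 43.2 to 67.9 CPM, most of it Csf1r in every library, and fibroblast and endothelial markers to 1.16 to 4.78 CPM.

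ATF4 and its partners of the C/EBP family bind a composite element, searched here as TGATGNAA on both strands. RefSeq windows from 250 bases before to 50 after a start site (build GRCm38.p6) were available for 38 of the 46 members, and 14 of these 38 (36.84%) held the element. Over all genes of the same table it was found in 1219 of 27025 genes (4.51%). Known ATF4 targets were put on the list, so the higher share among members is a description. The 10 stretches below are shown for members described in the comparisons that follow, both called and not called. Each runs 5′ to 3′ on the strand of the gene, and capitals mark the element, written TTNCATCA where it lies on the other strand. Distances are from a RefSeq start site, which can differ from the end of the GENCODE gene bounds given below. The Nupr1, Asns and Vldlr stretches lie inside those bounds, and the Trib3 element lies outside them. Vldlr had 2 windows, and 1 of them held the element.
Asns, chr6:7693214-7693243, minus strand, 23 bases before the start: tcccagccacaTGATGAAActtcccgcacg
Chac1, chr2:119351038-119351067, plus strand, 193 bases before the start: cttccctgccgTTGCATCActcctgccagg
Trib3, chr2:152344028-152344057, minus strand, 14 bases after the start: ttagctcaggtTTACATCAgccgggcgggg
Nupr1, chr7:126625562-126625591, minus strand, 110 bases before the start: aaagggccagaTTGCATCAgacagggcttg
Vldlr, chr19:27216809-27216838, plus strand, 200 bases before the start: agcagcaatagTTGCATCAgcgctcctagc
Slc7a11, first site, chr3:50443661-50443690, minus strand, 66 bases before the start: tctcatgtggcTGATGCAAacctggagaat
Slc7a11, second site, chr3:50443642-50443671, minus strand, 47 bases before the start: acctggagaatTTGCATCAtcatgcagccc
Slc1a4, chr11:20332699-20332728, minus strand, 4 bases before the start: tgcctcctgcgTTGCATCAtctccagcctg
Tars, chr15:11399655-11399684, minus strand, 15 bases before the start: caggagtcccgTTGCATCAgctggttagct
Got1, chr19:43524689-43524718, minus strand, 102 bases before the start: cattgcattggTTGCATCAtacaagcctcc
Got1, an aminotransferase of aspartate, is included because it holds the same TTGCATCA letters as Nupr1, Vldlr, Chac1, Slc1a4, Tars and the second Slc7a11 site and was not called in any comparison. Chac1 was not called in any comparison either. The same letters lie in windows of Aars and Iars, which are not shown.

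The members' levels differed by group. For each tested member the log2 level was set against its own mean over the 8 libraries, and the median over the 43 members was taken in each library. This median was 0.38 and 0.37 in the WT libraries before adhesion, -0.07 and 0.19 in WT after adhesion, 0.14 and -0.02 in E6 before adhesion, and -0.50 and -0.41 in E6 after adhesion. Both E6 libraries after adhesion were thus the lowest, both WT libraries before adhesion were the highest, and WT after and E6 before overlapped. The median SD between the 2 libraries of a group, over the members, was 0.05 in WT before, 0.26 in WT after, 0.11 in E6 before and 0.07 in E6 after on the log2 scale.

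**Figure D1:**
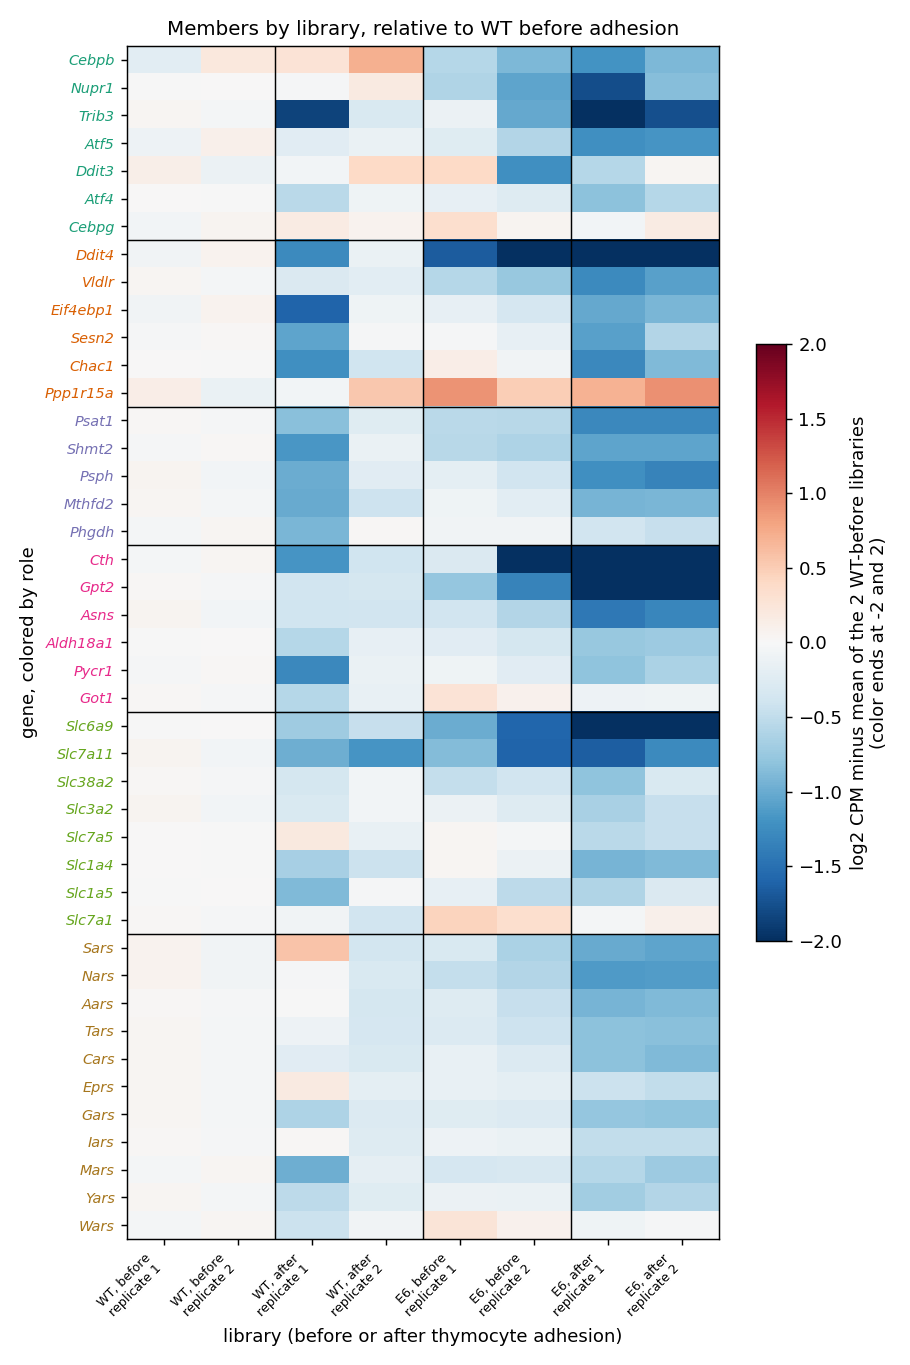
Heat map of the 43 tested members (rows, colored by role) in the 8 libraries (columns), as log2 CPM minus the mean of the 2 WT libraries before adhesion, with color ending at -2 and 2. Most rows are darkest blue in the 2 E6 libraries after adhesion, whereas the red row of Ppp1r15a is highest in E6.

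The first comparison set clone E6 against WT, averaged over both adhesion states. A gene was called at an adjusted p under 0.05 (edgeR's quasi-likelihood F test, Benjamini-Hochberg over all tested genes) together with a fold change of at least 1.5. Of the 43 members, 13 were lower in E6, against 6.13% of all tested genes, and 1 (Ppp1r15a) was higher, against 5.22%. The log2 fold change was below 0 for 38 of the 43, with a median of -0.33 against -0.01 over all tested genes. Without WT after replicate 1, the library that stood apart, 15 members were called, all of them lower, beside 1572 of 11892 genes. The calls of 8 members (Atf5, Cebpb, Ddit4, Vldlr, Asns, Gpt2, Slc6a9 and Nars) held when each library was left out in turn and under 7 other processing settings. The other 6 calls (Nupr1, Ppp1r15a, Psat1, Cth, Slc7a11 and Sars) were each lost without at least 3 of the 8 libraries. Of the members with the element, 4 of 14 were called lower, with a median of -0.39. Of the 21 tested members whose windows lacked it, 7 were called lower, with a median of -0.34.

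Among the 7 transcription factors and their regulators, 3 were lower in E6 and none was higher. Atf4 itself, on chr15:80255184-80257541 (GENCODE gene bounds on GRCm38, used for all genes below), stood at 476 and 476 CPM in WT before adhesion, 327 and 451 in WT after, 425 and 397 in E6 before, and 270 and 319 in E6 after. WT and E6 libraries overlapped, and Atf4 was not called (log2 fold change -0.31 ± 0.12 SE, adjusted p = 0.117). Atf5 (chr7:44812256-44816658), a related factor that is also controlled through eIF2, had 100 and 114 CPM in WT before, 91.7 and 97.6 in WT after, 90.6 and 71.5 in E6 before, and 45.6 and 47.3 in E6 after. Every E6 library lay below every WT library, and the lowest values were those of E6 after adhesion. The difference was -0.71 ± 0.10 on the log2 scale (adjusted p = 0.00415). Atf5 shares 571 bases with Nup62 on the opposite strand, and Nup62 was not called (-0.10).

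Cebpb (chr2:167688915-167690418), a C/EBP factor that pairs with ATF4, had 16.5 and 22.2 CPM in WT before, 23.1 and 31.6 in WT after, 12.9 and 10.2 in E6 before, and 8.32 and 10.3 in E6 after. The lines did not overlap, and the difference was -1.15 ± 0.17 on the log2 scale (adjusted p = 0.00475). Cebpb shares 908 bases with Tmem189 on the opposite strand, which was not called (0.11). Nupr1 (chr7:126623249-126630861), a small stress-induced chromatin protein, had 34.6 and 34.6 CPM in WT before, 34.0 and 39.0 in WT after, 22.7 and 16.5 in E6 before, and 10.1 and 19.05 in E6 after. Here too every E6 library lay below every WT library (-1.08 ± 0.21, adjusted p = 0.0121). The call of Nupr1 was lost without E6 before replicate 2 or either WT library before adhesion.

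Ddit3 (chr10:127290774-127296288), which encodes the death-promoting factor CHOP, had 11.5 and 9.65 CPM in WT before, 10.1 and 13.9 in WT after, 13.9 and 4.44 in E6 before, and 7.06 and 10.8 in E6 after. The E6 libraries before adhesion spanned the range of all the others, and Ddit3 was not called (-0.33 ± 0.34, adjusted p = 0.539). Ddit3 shares 68 bases with Mars, another member, on the opposite strand. Trib3 (chr2:152337422-152344032), a pseudokinase that is induced by ATF4 and dampens it, had 50.3 and 48.1 CPM in WT before, 13.6 and 39.8 in WT after, 45.6 and 24.2 in E6 before, and 11.7 and 14.4 in E6 after. Its replicates differed widely in WT after and E6 before, and it was not called (-0.77 ± 0.34, adjusted p = 0.151). Cebpg, another C/EBP partner of ATF4, was the only member of this group with a value above 0 (0.07).

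The 6 tested stress effectors were divided. Ddit4 (chr10:59949669-59951834), the mTORC1 inhibitor also known as REDD1, had 165 and 182 CPM in WT before, 71.6 and 157 in WT after, 54.6 and 27.04 in E6 before, and 15.4 and 24.6 in E6 after. No E6 library reached the lowest WT library, and the log2 fold change of -2.30 ± 0.33 (adjusted p = 0.00412) was the largest in size among the 43 members. Ddit4 lies on chromosome 10, whose 460 tested genes had a median of -0.37 in this comparison, and its value lay below that median. Vldlr (chr19:27216484-27254231), a lipoprotein receptor, had 82.2 and 78.6 CPM in WT before, 66.03 and 69.7 in WT after, 54.4 and 47.3 in E6 before, and 33.3 and 37.8 in E6 after. The replicates were close and the lines did not overlap (-0.80 ± 0.09, adjusted p = 0.00165).

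Ppp1r15a (chr7:45522916-45526268), which encodes the phosphatase subunit GADD34 that removes the phosphate from eIF2, went the other way. Its levels were 68.8 and 57.5 CPM in WT before, 60.7 and 91.3 in WT after, 118 and 88.7 in E6 before, and 102 and 119 in E6 after. WT after replicate 2 overlapped the E6 libraries. Ppp1r15a shares 717 bases with Tulp2 on the opposite strand, which was too low to be tested. The log2 fold change was 0.62 ± 0.16 (adjusted p = 0.0329), and the call held without WT after replicate 2 but was lost without any one of the other 7 libraries. It was also lost with a replicate block (adjusted p = 0.0504) and, for a fold change under 1.5, with culture hours as a covariate (0.57) and with a GC correction without or with the block (0.53 in both). Chac1 (chr2:119351229-119354381), an enzyme that breaks down glutathione and a sensitive readout of ATF4, did not separate the lines, with 44.5 and 44.0 CPM in WT before, 18.9 and 33.7 in WT after, 48.5 and 42.4 in E6 before, and 18.0 and 24.0 in E6 after. Its log2 fold change was -0.15 ± 0.19 (adjusted p = 0.627). Sesn2 and Eif4ebp1, both restraints on mTORC1 or its output, were not called at -0.24 and -0.28.

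Of the 5 enzymes that make serine and glycine and pass their carbon to folate, 1 was lower in E6. Psat1 (chr19:15904678-15947337), the aminotransferase of serine synthesis, had 656 and 639 CPM in WT before, 363 and 550 in WT after, 444 and 440 in E6 before, and 265 and 266 in E6 after. The E6 libraries before adhesion overlapped the WT libraries after it (-0.67 ± 0.13, adjusted p = 0.0138). The call held without WT after replicate 1 but was lost without any one of the other 7 libraries. Shmt2, Psph, Mthfd2 and Phgdh were not called, with log2 fold changes between -0.54 and -0.06. Shmt2 lies on chromosome 10 too, and Psph lies on chromosome 5, whose 641 tested genes above the same level limit had a median of 0.33.

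Among the other amino acid enzymes, 3 of 6 were lower. Asns (chr6:7675169-7693254), asparagine synthetase, the classical target of the amino acid response, had 396 and 368 CPM in WT before, 289 and 294 in WT after, 291 and 255 in E6 before, and 141 and 154 in E6 after. E6 before adhesion was at the level of WT after adhesion, and both libraries of E6 after adhesion were below all others (-0.73 ± 0.09, adjusted p = 0.00209). Gpt2 (chr8:85492576-85527560), the mitochondrial alanine aminotransferase, had 126 and 121 CPM in WT before, 94.1 and 97.0 in WT after, 72.1 and 49.0 in E6 before, and 29.6 and 28.6 in E6 after. The 4 groups formed a descending series without overlap, and the difference between the lines was -1.37 ± 0.13 (adjusted p = 0.000869). Cth (chr3:157894248-157925077), which makes cysteine from cystathionine, was counted thinly, with 59 and 51 counts in WT before, 22 and 57 in WT after, 43 and 11 in E6 before, and 5 and 8 in E6 after. E6 before replicate 1 lay within the WT range, and the call (-1.78 ± 0.51, adjusted p = 0.0451) was lost when any 1 of 5 libraries was left out. It was also lost without the filter on low counts (adjusted p = 0.0615) and with a replicate block, without or with a GC correction (adjusted p = 0.0626 and 0.0657). Aldh18a1, Pycr1 and Got1 were not called (-0.34, -0.15 and 0.22).

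**Figure D2:**
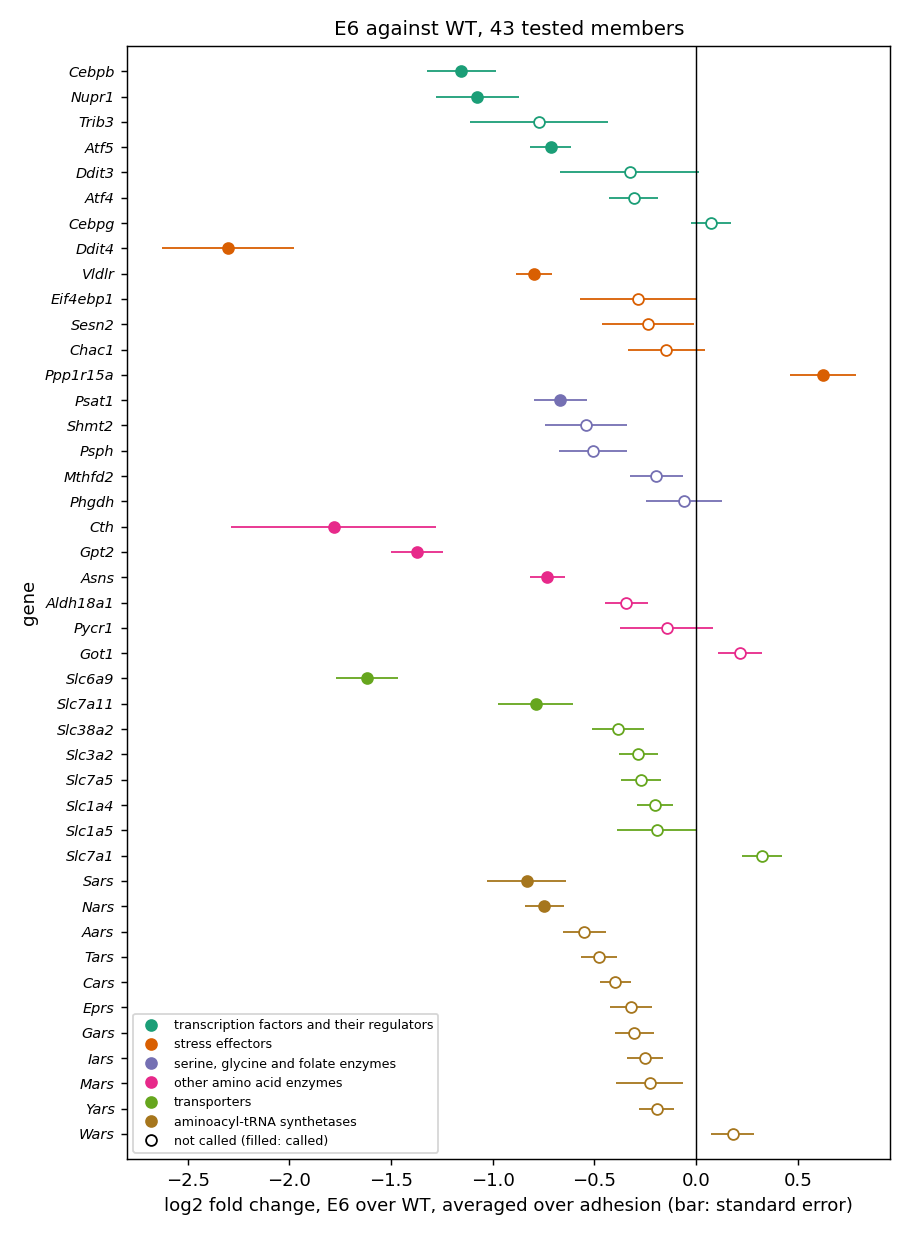
Log2 fold change of E6 over WT, averaged over adhesion, for the 43 tested members, grouped and colored by role. Bars are standard errors and filled points were called: 13 lie left of 0 and 1, Ppp1r15a, lies right of it.

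Amino acid transporters gave 2 lower calls among 8. Slc6a9 (chr4:117834506-117875198), the glycine transporter GlyT1, had 73.6 and 74.6 CPM in WT before, 45.5 and 53.5 in WT after, 37.1 and 24.6 in E6 before, and 11.3 and 14.0 in E6 after. As for Gpt2, the groups descended without overlap, here by -1.62 ± 0.15 between the lines (adjusted p = 0.000952). Slc6a9 shares 6034 bases with Ccdc24 and 5939 bases with B4galt2, both on the opposite strand and both too low to be tested. Slc7a11 (chr3:49892526-50443614), the cystine-glutamate exchanger xCT, had 24.6 and 22.8 CPM in WT before, 11.9 and 10.4 in WT after, 13.0 and 7.71 in E6 before, and 7.48 and 9.67 in E6 after. Only WT before adhesion stood apart, and the averaged difference was -0.79 ± 0.18 (adjusted p = 0.0233). This call was lost when any 1 of 5 libraries was left out. The arginine and lysine carrier Slc7a1, on chromosome 5, was the only transporter with a value above 0 (0.32, not called), and Slc7a5, Slc3a2, Slc1a4, Slc1a5 and Slc38a2 were not called, at -0.38 to -0.19.

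Aminoacyl-tRNA synthetases, which load amino acids onto tRNA, gave 2 lower calls among 11. Nars, for asparagine, had 829 and 756 CPM in WT before, 779 and 640 in WT after, 570 and 526 in E6 before, and 362 and 366 in E6 after. The lines did not overlap (-0.75 ± 0.10, adjusted p = 0.00295). Sars (chr3:108424865-108445209), for serine, had 491 and 450 CPM in WT before, 694 and 366 in WT after, 381 and 302 in E6 before, and 233 and 226 in E6 after. Its highest value came from WT after replicate 1, the library that stood apart, and without that library the difference shrank from -0.83 ± 0.20 (adjusted p = 0.0243) to -0.55 and was not called. Leaving out any other library but WT after replicate 2 ended the call too. Aars, Tars and Cars, for alanine, threonine and cysteine, had adjusted p-values of 0.0123, 0.0111 and 0.0124 but differed by less than 1.5-fold (-0.55, -0.48 and -0.40). The other 6 lay between -0.32 and 0.18, and Wars, for tryptophan, was the only one above 0.

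**Figure D3:**
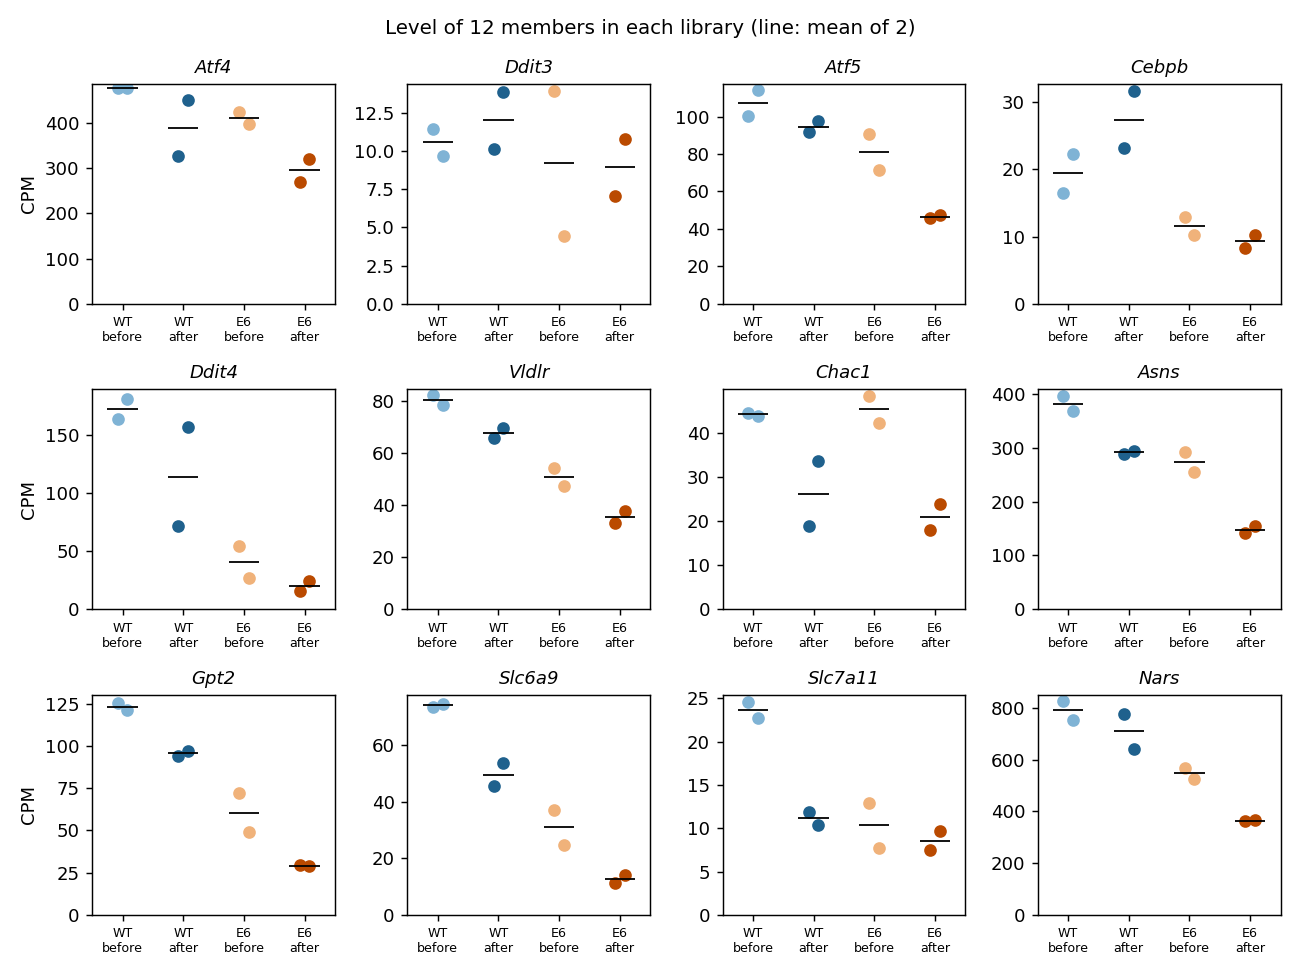
Level of 12 members as CPM (vertical axes from 0) in the 2 libraries of each group, with lines at the group means. Gpt2 and Slc6a9 descend from WT before to E6 after without overlap, Chac1 is lower in every library after adhesion than in any before it, and Ddit3 shows no separation.

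The same comparison was made within each adhesion state. Before adhesion, 5 members (Ddit4, Gpt2, Slc6a9, Slc7a11 and Vldlr) were lower in E6, against 2.56% of all tested genes, and none was higher. The median over the members was -0.29, against 0.00 over all tested genes. After adhesion, 13 members were lower, against 4.06%, and none was higher, with a median of -0.40 against -0.02. These 13 were Atf5, Cebpb, Nupr1, Ddit4, Vldlr, Psat1, Asns, Gpt2, Slc6a9, Aars, Nars, Sars and Tars. In all, 4 members were called in both states, 1 before alone and 9 after alone, and the test of that difference is given with the adhesion effects.

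Both counts within a state changed with the libraries used. A fit with a library left out has 1 library in that group, so these counts show only how far the calls depend on single libraries. Before adhesion, 10 members (9 lower and 1 higher) were called with either WT library after adhesion left out or with only the 4 libraries compared, and 0 to 2 were called when any 1 of the other 6 libraries was left out. After adhesion, none was called without either E6 library after adhesion or with only the 4 libraries compared. There were 7 calls without either WT library before adhesion, 9 without either E6 library before adhesion, 18 without WT after replicate 1 and 19 (16 lower and 3 higher) without WT after replicate 2, beside 1857 of 11892 and 4500 of 11931 genes. Slc7a11 had a log2 fold change of -1.20 ± 0.26 before adhesion (adjusted p = 0.0412) and -0.38 ± 0.26 after it (adjusted p = 0.371), and the test of the difference between these 2 values gave no call (0.83 ± 0.37, adjusted p = 0.988). Asns differed by -0.49 ± 0.12 before adhesion (adjusted p = 0.0643) and by -0.98 ± 0.12 after it (adjusted p = 0.00693), again with no call for the difference (-0.50 ± 0.17, adjusted p = 0.988).

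The second comparison was adhesion itself. In WT, no member and 0 of the 11672 genes (0%) passed the threshold by edgeR's quasi-likelihood test, with 11 members and 873 genes at an unadjusted p under 0.05. DESeq2 called 1 member and 64 genes. The median over the members was -0.35 against 0.02 over all genes, and 35 of 43 values were below 0. Both WT libraries after adhesion lay below both before it for 30 of the 43 members, against 14.5% of all tested genes. Leaving out either WT library after adhesion leaves 1 library in that group, which is then assumed to vary like the other groups. Without WT after replicate 1, 2 members were called, 1 in each direction, beside 207 of 11892 genes. Without WT after replicate 2, 18 members were called, all lower, beside 3550 of 11931 genes.

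In E6, 6 members were lower after adhesion (Asns, Atf5, Cars, Gpt2, Slc1a4 and Slc6a9), against 0.0771% of all tested genes. They made up 6 of the 9 genes called lower in this comparison and 6 of the 43 members, and the other 3 called genes were Narf, P4ha1 and Fgfbp1. The log2 fold change was below 0 for 42 of the 43 members, with a median of -0.51 against -0.02 over all genes, and Ppp1r15a was the exception (0.10). For 35 of the 43, both libraries after adhesion lay below both before it, against 31.5% of all tested genes. No member was called when any library other than those of WT after adhesion was left out, and 15 were called without either WT library after adhesion, beside 643 of 11892 and 629 of 11931 genes.

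Slc6a9 fell from 37.1 and 24.6 CPM to 11.3 and 14.0 in E6 (-1.28 ± 0.22, adjusted p = 0.0336). Gpt2 changed by -1.05 ± 0.18 (adjusted p = 0.0336) and Asns by -0.88 ± 0.12 (adjusted p = 0.016), from the levels given above. Slc1a4 (chr11:20302180-20332713), a carrier of neutral amino acids including serine, had 87.7 and 78.9 CPM in E6 before adhesion and 44.9 and 46.3 after it. This was a change of -0.87 ± 0.12 (adjusted p = 0.0174), and WT values were 86.5 and 84.7 CPM before and 53.8 and 63.6 after. The lines overlapped before adhesion, and every library after adhesion lay below every library before it. Atf5 fell by 0.80 ± 0.14 on the log2 scale in E6 (adjusted p = 0.0398). Cars (chr7:143557230-143600090), the cysteine tRNA synthetase, had 167 and 152 CPM in E6 before adhesion and 104 and 100 after it (-0.64 ± 0.11, adjusted p = 0.0331), beside 189 and 180 CPM in WT before and 157 and 150 after.

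Averaged over both lines, 5 members (Asns, Gpt2, Mthfd2, Slc1a4 and Slc6a9) were lower after adhesion, against 0.103% of all tested genes. The median over the members was -0.40 against 0.00, and 40 of 43 values were below 0. Without WT after replicate 1, 9 members (and 503 of 11892 genes) were called, and without WT after replicate 2, 18 (and 1341 of 11931). Without E6 before replicate 2 there were 2 calls, and without any one of the other 5 libraries there was none. Mthfd2 (chr6:83305691-83325908), the mitochondrial folate enzyme, had 137 and 130 CPM in WT before, 66.4 and 99.8 in WT after, 126 and 115 in E6 before, and 70.0 and 70.8 in E6 after. All libraries after adhesion lay below all those before it (-0.73 ± 0.13, adjusted p = 0.042), and the difference between the lines was -0.20 (adjusted p = 0.326). The adhesion call of Mthfd2 was also lost without the filter on low counts (adjusted p = 0.063) and with a replicate block (adjusted p = 0.0739). Chac1 showed the same pattern with a change of -0.93 ± 0.19 that was not called (adjusted p = 0.0663). The textbook readouts Trib3 (-1.14 ± 0.34, adjusted p = 0.246), Atf4 (-0.39 ± 0.12, adjusted p = 0.277) and Ddit3 (0.08 ± 0.34, adjusted p = 0.935) were not called either.

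**Figure D4:**
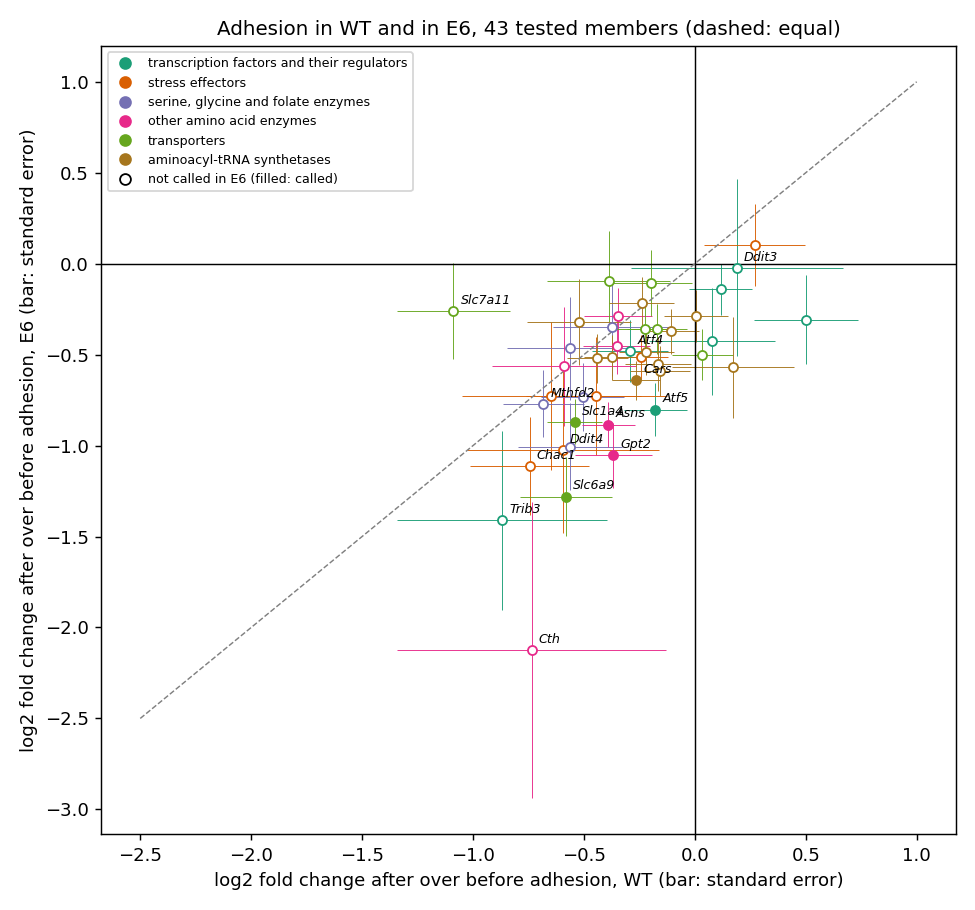
Log2 fold change after over before adhesion in WT (horizontal) and in E6 (vertical) for the 43 tested members, with standard errors, colors by role, and a dashed line where both are equal. Of the points, 42 lie below 0 on the vertical axis and 35 lie left of 0 on the horizontal axis, and the 6 filled points were called in E6.

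Whether adhesion changed the members differently in the 2 lines was tested as the difference of the adhesion effects. No member and 0 of the 11672 genes (0%) passed by edgeR's quasi-likelihood test, with 7 members and 297 genes at an unadjusted p under 0.05, and DESeq2 called 0 members and 3 genes. The median over the members was -0.27 against -0.01 over all genes, with 34 of 43 values below 0. Its direction was not the same with each WT library after adhesion left out, where the remaining one is again assumed to vary like the other groups. Without WT after replicate 1, the median was -0.32 and 8 members were called, all with the more negative change in E6, beside 145 of 11892 genes. Without WT after replicate 2, the median turned to 0.03 and 10 members were called, 7 of them in the opposite direction, beside 3049 of 11931 genes.

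Other measures moved with adhesion. Thymocyte markers (15 of 25 were analysed here) summed to between 2.11 and 3.31 CPM before and between 123 and 154 CPM after adhesion in E6. In WT they summed to between 1.52 and 2.22 CPM before and between 19.4 and 27.3 CPM after adhesion. In each line, 8 of the 15 thymocyte markers had 0 counts in both libraries before adhesion, and none had 0 counts in both libraries after it. The myeloid marker Lyz2 was listed at 0 in all 4 libraries before adhesion, and after it at 6.68 and 5.40 CPM in E6 and at 0.798 and 1.19 CPM in WT. Emr1, a macrophage marker, was likewise at 0 before adhesion, and at 2.27 and 1.29 CPM in E6 and 0.266 and 0.248 CPM in WT after it. Csf1r, most of the myeloid sum, did not rise. It had 54.0 and 41.2 CPM before and 41.5 and 41.7 CPM after adhesion in E6. In WT it had 58.9 and 66.2 CPM before and 36.7 and 57.9 CPM after. The myeloid sum was 44.1 to 56.5 CPM before and 55.7 to 55.9 CPM after adhesion in E6. In WT the sum was 60.9 to 67.9 CPM before and 43.2 to 66.1 CPM after. In bulk samples, fewer epithelial cells and less of an RNA per epithelial cell cannot be told apart. Epithelial markers summed to 4954 to 5081 CPM in E6 before and 4763 to 4772 CPM after adhesion. In WT they summed to 4599 to 4890 CPM before adhesion. After it they summed to 3125 CPM in WT replicate 1, the library that stood apart, and 5138 CPM in WT replicate 2. Between libraries of 1 group, those cultured for 24 h were higher than those cultured for 12 h by a median over the members of 0.34 in WT after adhesion (32 of 43 higher) and 0.17 in E6 before (40 of 43 higher), but were -0.10 in E6 after (10 of 43 higher). Each of these values compares 1 library with 1 other. In WT after, the 12 h library was replicate 1, which stood apart, so culture hours and that library's other differences cannot be told apart. With culture hours as a covariate, 12 members were called lower in E6 averaged over adhesion, beside 1194 of 11672 genes called in either direction. The part of RNA from thymocytes or myeloid cells was not tested, either in the adhesion results or in comparisons of the lines that use libraries after adhesion.

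Neighboring pathways were counted in the averaged comparison of the lines, where 11.3% of all tested genes were called in either direction. Of 16 eIF2 kinases and translation control genes, 1 was called, Gcn1l1, the GCN2 activator, which was higher in E6 (0.67 ± 0.15, adjusted p = 0.0199). Gcn1l1 had 222 to 242 CPM in the E6 libraries. In WT it had 96.9 CPM in after replicate 1, which stood apart, and 157 to 167 CPM otherwise. The other arms of the unfolded protein response, represented by 17 tested targets and sensors of ATF6 and XBP1, had no call and a median of 0.17. The 9 cytosolic tRNA synthetases that were not on the member list had no call, and 3 of the 9 values were above 0. Of 17 mitochondrial synthetases, Mars2 was higher (0.82 ± 0.13, adjusted p = 0.00705). None of 23 amino acid sensing and mTORC1 genes was called. Of 11 other folate enzymes, 1 was lower, Aldh1l2, a mitochondrial enzyme that oxidizes formyl-folate (-1.09 ± 0.14, adjusted p = 0.00308).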

How the data were processed

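Total RNA of 8 samples of mTEC 3.10 cells was sequenced from stranded libraries, made with an mRNA kit per the labels and with a total RNA kit per the methods of the study. The authors aligned reads with STAR 2.5.0a to mm10/GRCm38 and counted them per gene with HTSeq, and the deposited files hold these unnormalized counts, 1 file per library. Whether strand was used in counting is not given in the sources used here, so reads of genes that overlap on opposite strands may not be told apart. The 5 HTSeq summary lines were left out of library sizes, and 18 symbols that a spreadsheet had turned into dates were restored in 1 library.

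Counts of 24052 symbols, 15836 with a count, were filtered with filterByExpr, scaled by TMM and fitted over all 8 libraries with 1 mean per group by edgeR 4.0.16 (glmQLFit, glmQLFTest, R 4.3.3). Adjusted p-values are Benjamini-Hochberg over the 11672 tested genes. The SE of a log2 fold change is its size over the square root of F. CPM use TMM library sizes and log2 levels a prior count of 2. The authors used DESeq2, which was run as an alternative (1.42.0). Locations are from GENCODE vM21 (GRCm38) and start sites from RefSeq.

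The members and lists were chosen with earlier results of these data known. Full values were given for Atf4, Ddit3, Asns, Trib3 and Chac1, for members called in the averaged comparison of the lines and for members called in an adhesion comparison, and from other lists at most 3 called genes were named. Narf, P4ha1 and Fgfbp1 were named after their values were seen, as was the promoter stretch of Got1. Alternatives were RLE size factors, no filter, a replicate block, culture hours, a GC correction, no fold limit, the compared libraries only, and leaving out each library. For 1 listed gene the result, and for 1 member the promoter stretch, are not reported here.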

Additional observations from a re-analysis of the deposited data

How the results depend on the processing

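The number of members called was recomputed under each alternative, and no direction of a called member reversed. In the averaged comparison of the lines, the main fit called 14 members and 1324 genes in all. Alternatives that kept all 8 libraries and the fold limit called 12 to 16 members, beside 1194 to 1410 genes. Calls over all tested genes changed there too when 1 library was left out, so those changes were not particular to the members. For E6 against WT averaged over adhesion, leaving out 1 library gave 8 to 15 calls. Before adhesion (5 calls) there were 3 without the filter, 2 with a replicate block, 3 with culture hours, 8 with a GC correction, 10 with only the compared libraries and 0 to 10 leaving out 1 library. After adhesion (13 calls) only the 4 compared libraries gave 0, and leaving out 1 library gave 0 to 19. For adhesion in WT (0 calls) DESeq2 gave 1 and leaving out 1 library 0 to 18. For adhesion in E6 (6 calls) DESeq2 gave 10, no filter 2, the replicate block 2, culture hours 3, only the 4 libraries 14, and leaving out 1 library 0 to 15. For adhesion averaged (5 calls) DESeq2 gave 10, no filter 3, the replicate block 2, and leaving out 1 library 0 to 18. The difference of adhesion effects (0 calls) gave 0 to 10. The cause was not tested. The labels number the replicates but do not pair them, and correlations of same-numbered deviations ran from -0.06 to 0.19 over 10292 genes. With 2 libraries per group, 1 clone and 1 WT library after adhesion that stood apart, the counts within a state or line moved more under these alternatives than the count averaged over adhesion, and low genes such as Cth rest on few reads.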
